A study of Homo sapiens with 6 samples.

Results

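The cadherin superfamily was measured in SUM159 cells, an established human triple negative breast cancer line, with and without stable knockdown of TβRIII, the type III TGF-β receptor encoded by TGFBR3. Members were taken by gene symbol from the transcript clusters (array rows, each a group of probes along a transcript) that carry 1 symbol. Symbols that start with CDH, PCDH, DSG, DSC, FAT, DCHS or CELSR and fit the pattern of the family gave 67 of the 18276 genes measured. These were 4 type I classical cadherins, 13 type II classical cadherins, 4 atypical cadherins, 7 desmosomal cadherins, 9 FAT, Dachsous and CELSR cadherins, 11 non-clustered protocadherins, 18 clustered protocadherins and 1 antisense RNA. The antisense RNA, CDH4-AS2, was caught by the wording of its symbol and encodes no cadherin.

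TβRIII-KD cells (n = 3 arrays) and control cells (n = 3 arrays) were both grown in matrigel for three-dimensional culture, and the labels give day 6. The knockdown line was made by lentiviral delivery of an shRNA and puromycin selection, so the TβRIII-KD group is 1 stable line, and the controls were taken as 1 line too. By the study's account 1 shRNA was carried forward for its TβRIII-KD lines. For its blots the study names SUM159 cells that stably express a control. The labels do not say what the control cells of these arrays carry, and they leave unsaid if replicate arrays stem from separate cultures. What the p-values measure is thus the spread between these arrays and nothing wider. TGFBR3 had log2 signals of 9.72, 10.01 and 10.16 in TβRIII-KD, against 10.81, 10.89 and 10.56 in controls. Its log2 fold change was -0.79 (SE 0.13, limma adjusted p = 0.0145). Leaving out TβRIII-KD 2 gave an adjusted p of 0.0625, leaving out control 1 gave 0.0770 and leaving out control 2 gave 0.0554, and all alternatives together gave 0.00872 to 0.198.

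Array medians lay between 7.67 and 7.71, and replicate arrays correlated at 0.992 to 0.996 over all transcript clusters (genes are not independent replicates). The mesenchymal genes VIM and CD44 had mean signals of 13.00 and 12.20 in TβRIII-KD and 13.07 and 12.24 in controls. The epithelial gene EPCAM had mean signals of 5.80 in TβRIII-KD and 5.95 in controls, under the lower quartile of all transcript clusters (6.38). The keratins of simple epithelium were high in both groups, with means of 11.47 in TβRIII-KD and 11.83 in controls for KRT8 and of 10.68 in TβRIII-KD and 11.07 in controls for KRT18.

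Cadherins are calcium-dependent adhesion proteins of the cell surface. Classical cadherins bind the same cadherin on the next cell and hold the actin cytoskeleton through β-catenin, p120-catenin and α-catenin, and the switch between E-cadherin and N-cadherin is a textbook mark of epithelial and mesenchymal states in breast cancer. Desmosomal cadherins hold intermediate filaments through plakoglobin and desmoplakin. FAT and Dachsous cadherins bind each other across cells, CELSR receptors act in planar cell polarity, and clustered protocadherins are best known for giving neurons a cell-surface identity.

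The study's cutoff asks for an adjusted p under 0.05 together with a log2 fold change beyond 0.5 in either direction. At this cutoff, 2 members rose and 9 fell in TβRIII-KD. CDH6 and CDH18 rose, CDH11 fell, and the other 8 that fell were all protocadherins of the β cluster. Over all genes, 2.33% passed this cutoff, 0.772% higher and 1.55% lower, against 16.4% of the cadherin members. Outside the β cluster the share was 6.12% (3 of 49 members), and within it 44.4% (8 of 18). Arrays of the groups did not overlap for 8 members that were higher and 14 that were lower in TβRIII-KD, where 10.2% of all genes were higher and 11.0% were lower without overlap. The smallest p that an exact permutation test of 3 arrays against 3 can give is 0.1. In bulk RNA, fewer cells that express a gene and less RNA of it per cell cannot be told apart.

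Type II classical cadherins held the largest differences outside the β cluster. They are the cadherins of mesenchymal, neural and endothelial tissue. Of 13 genes, 2 rose, 1 fell and 10 did not pass the cutoff, and their median log2 fold change was 0.09, beside 0.01 for all genes. CDH6, or K-cadherin, known from the developing kidney, had log2 signals of 11.07, 10.92 and 10.87 in TβRIII-KD, against 9.71, 9.80 and 9.29 in controls. The groups were more than 1 log2 unit apart at their nearest arrays. CDH6 was 2.55-fold higher in TβRIII-KD (log2 fold change 1.35, SE 0.13, adjusted p = 0.00148).

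CDH18, a cadherin known mainly from the nervous system, had log2 signals of 10.06, 10.26 and 10.42 in TβRIII-KD, against 9.18, 9.22 and 8.95 in controls. Here too the groups did not overlap. CDH18 was 2.19-fold higher in TβRIII-KD (log2 fold change 1.13, SE 0.11, adjusted p = 0.00153). CDH11, or OB-cadherin, of osteoblasts and other mesenchymal cells, had log2 signals of 7.91, 7.94 and 7.68 in TβRIII-KD, against 8.73, 8.73 and 8.85 in controls. It moved the opposite way, with a signal 1.90-fold higher in controls (log2 fold change -0.93, SE 0.09, adjusted p = 0.00144). CDH6, CDH18 and CDH11 passed the cutoff whichever single array was left out, with adjusted p up to 0.0155.

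Fibroblast markers moved the same way as CDH11 in sum. The linear signals of the 8 listed added up to 3885 to 4898 in TβRIII-KD and 5248 to 5817 in controls. None of the 8 passed the cutoff, where 2.33% of all genes did. The mean was lower in TβRIII-KD for 7 of the 8 and higher for 1, with a median log2 fold change of -0.16. PDGFRB and PDGFRA were at -0.54 and -0.40 on the log2 scale (limma adjusted p = 0.117 and 0.0738). FAP, with mean signals under the lower quartile of all transcript clusters in both groups, was at -0.68 (adjusted p = 0.053), while COL1A1 was at -0.07. Whether these markers have a part in the CDH11 difference was not tested.

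CDH10, another neural type II cadherin, had log2 signals of 5.29, 5.04 and 5.18 in TβRIII-KD, against 4.37, 4.82 and 4.88 in controls. Its arrays did not overlap, but its log2 fold change of 0.48 did not pass the test (SE 0.14, adjusted p = 0.119). All its values lay under the lower quartile of all transcript clusters (6.38). The other 9 type II genes lay between -0.16 and 0.16. CDH5, the VE-cadherin of endothelium, was at the lower end, with 6.45 ± 0.14 in TβRIII-KD and 6.61 ± 0.14 in controls (mean ± SD, n = 3 each, adjusted p = 0.517).

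Among the other endothelial genes listed, KDR, a VEGF receptor, and PECAM1, an adhesion receptor of endothelium and platelets, fell by 1.73 and 1.04 on the log2 scale (adjusted p = 0.00338 and 0.00127). The summed linear signal of the 9 endothelial markers listed was 909 to 1089 in TβRIII-KD and 1562 to 1936 in controls. Of the 9, 2 passed the cutoff, both lower in TβRIII-KD, where 1.55% of all genes passed it and were lower. KDR had the highest mean signal of the 9 in both groups (8.03 in TβRIII-KD, 9.76 in controls). The mean was higher in TβRIII-KD for 6 of the 9 and lower for 3, with a median log2 fold change of 0.05. ERG, an endothelial transcription factor, passed by adjusted p but not by fold, with mean signals of 7.06 in TβRIII-KD and 7.53 in controls (log2 fold change -0.47, adjusted p = 0.0234). VWF and TIE1, which also define endothelium, were at 0.08 and 0.05 and had mean signals under the lower quartile in both groups. What these genes have to do with any cadherin difference was not tested.

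CDH18, CDH12, CDH10, CDH9 and CDH6 lie in this order along one stretch of the short arm of chromosome 5 in the RefSeq gene order of GRCh38.p14. Both genes that rose stand at its ends. CDH12, which lies next to CDH18, had log2 signals of 9.44, 9.57 and 9.78 in TβRIII-KD, against 9.60, 9.52 and 9.69 in controls. Its groups overlapped, with a log2 fold change of -0.01 (95% confidence interval -0.23 to 0.22). CDH9, beside CDH6, was at 0.16 (adjusted p = 0.672). Outside the stretch, BASP1 on the CDH18 side was at 0.37 (adjusted p = 0.120) and DROSHA on the CDH6 side at -0.01 (adjusted p = 0.975). On chromosome 16, CDH8 and CDH5 flank CDH11 among the measured genes, at -0.02 and -0.16.

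**Figure D1:**
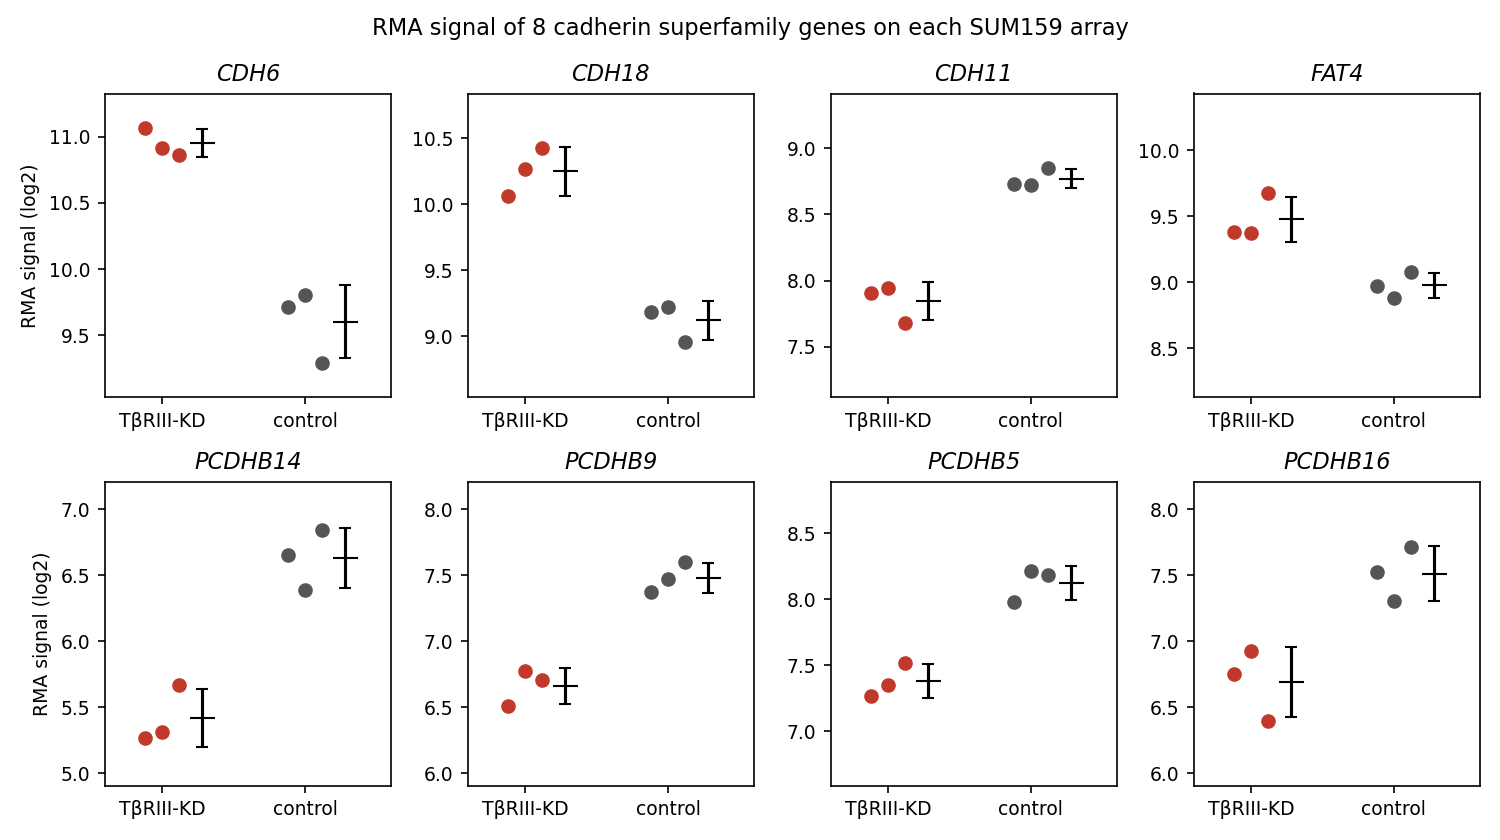
RMA signal (log2) of 8 members on each array, 1 dot per array, TβRIII-KD in red on the left of each panel and control in grey on the right, with bars for the mean ± SD of each group (n = 3). CDH6, CDH18 and FAT4 lie higher in TβRIII-KD and the other 5 genes lie lower, and no panel has overlapping groups. The vertical axes start at different signals and span the same number of log2 units.

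Type I classical cadherins did not pass the cutoff in any of the 4 genes measured, and their log2 fold changes lay between 0.06 and 0.13. CDH2, the N-cadherin of mesenchymal cells, had log2 signals of 10.37, 10.10 and 10.10 in TβRIII-KD, against 10.08, 10.14 and 9.97 in controls. The groups overlapped, and the interval of the difference was -0.09 to 0.35 (log2 fold change 0.13, adjusted p = 0.587). CDH1, which encodes E-cadherin, had signals of 5.47, 5.46 and 5.35 in TβRIII-KD, against 5.44, 5.42 and 5.17 in controls. All 6 values lay under the lower quartile of signals, and the log2 fold change was 0.08 (interval -0.13 to 0.29, adjusted p = 0.732). CDH3, or P-cadherin of basal epithelium, was at 0.12 (adjusted p = 0.526), and CDH15, the M-cadherin of muscle, at 0.06 (adjusted p = 0.821). The 4 atypical cadherins, CDH16, CDH17, CDH23 and CDH26, lay between 0.01 and 0.16, and none passed the cutoff. CDH4 and CDH13 were not analysed here, since no transcript cluster carries either symbol alone.

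No desmosomal cadherin passed the cutoff, and the 7 genes lay between -0.36 and 0.19 with a median of -0.03. DSG2, the desmoglein of simple epithelia, had log2 signals of 9.12, 8.62 and 8.94 in TβRIII-KD, against 9.30, 9.22 and 9.23 in controls. Its groups did not overlap, and TβRIII-KD 2 lay lowest. The log2 fold change was -0.36 (interval -0.63 to -0.08, adjusted p = 0.182). The other 6, DSG1, DSG3, DSG4, DSC1, DSC2 and DSC3, are desmosomal cadherins best known from stratified epithelium and hair, apart from the more widely expressed DSC2, and each had mean signals under the lower quartile in both groups. Of these, DSG4 alone had groups that did not overlap (0.16, adjusted p = 0.428).

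Among the FAT, Dachsous and CELSR cadherins, 7 of 9 had a higher mean in TβRIII-KD, where 54.5% of all genes did, and their median was 0.14. FAT4, a giant cadherin that binds DCHS1, had log2 signals of 9.38, 9.37 and 9.68 in TβRIII-KD, against 8.97, 8.88 and 9.08 in controls. Its groups did not overlap. Its log2 fold change of 0.49975 (SE 0.10, adjusted p = 0.0362) lay just under the fold limit and did not pass the cutoff. By adjusted p alone, FAT4, CDH6 and CDH18 were higher and 9 members were lower, where 3.48% of all genes passed, 1.26% higher and 2.22% lower. A repeat of quantile normalization put FAT4 at 0.52 (adjusted p = 0.0381), past the cutoff. Its adjusted p lay between 0.0466 and 0.140 with single arrays left out and between 0.0137 and 0.222 over all alternatives.

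FAT1, which acts on actin dynamics and the Hippo pathway, had log2 signals of 10.52, 10.63 and 10.50 in TβRIII-KD, against 10.30, 10.35 and 10.38 in controls. CELSR2, a polarity receptor of the adhesion GPCR class, had 8.40, 8.65 and 8.54 in TβRIII-KD, against 8.24, 8.19 and 8.26 in controls. Neither gene had overlapping groups. Their log2 fold changes were 0.21 (adjusted p = 0.197) and 0.30 (adjusted p = 0.102), and neither passed the test. FAT2 was at 0.38 with overlapping groups (adjusted p = 0.338). DCHS1, which binds FAT4, was at 0.06 (interval -0.18 to 0.29), and CELSR3 was the lowest of the 9 at -0.18 (adjusted p = 0.492).

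The 11 non-clustered protocadherins, single genes scattered over the genome, lay between -0.02 and 0.20 with a median of 0.08, and none passed the cutoff. PCDH17 alone had groups that did not overlap, with log2 signals of 8.62, 8.66 and 8.66 in TβRIII-KD, against 8.52, 8.57 and 8.34 in controls. Its log2 fold change of 0.17 did not pass the test (adjusted p = 0.385). PCDH7, PCDH18 and PCDH15, a part of the tip links of hair cells in the ear, were at 0.18, 0.18 and 0.20 with overlapping groups. PCDH1, which stands beyond the β and γ clusters on the same chromosome arm, was at -0.02 (interval -0.22 to 0.18).

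**Figure D2:**
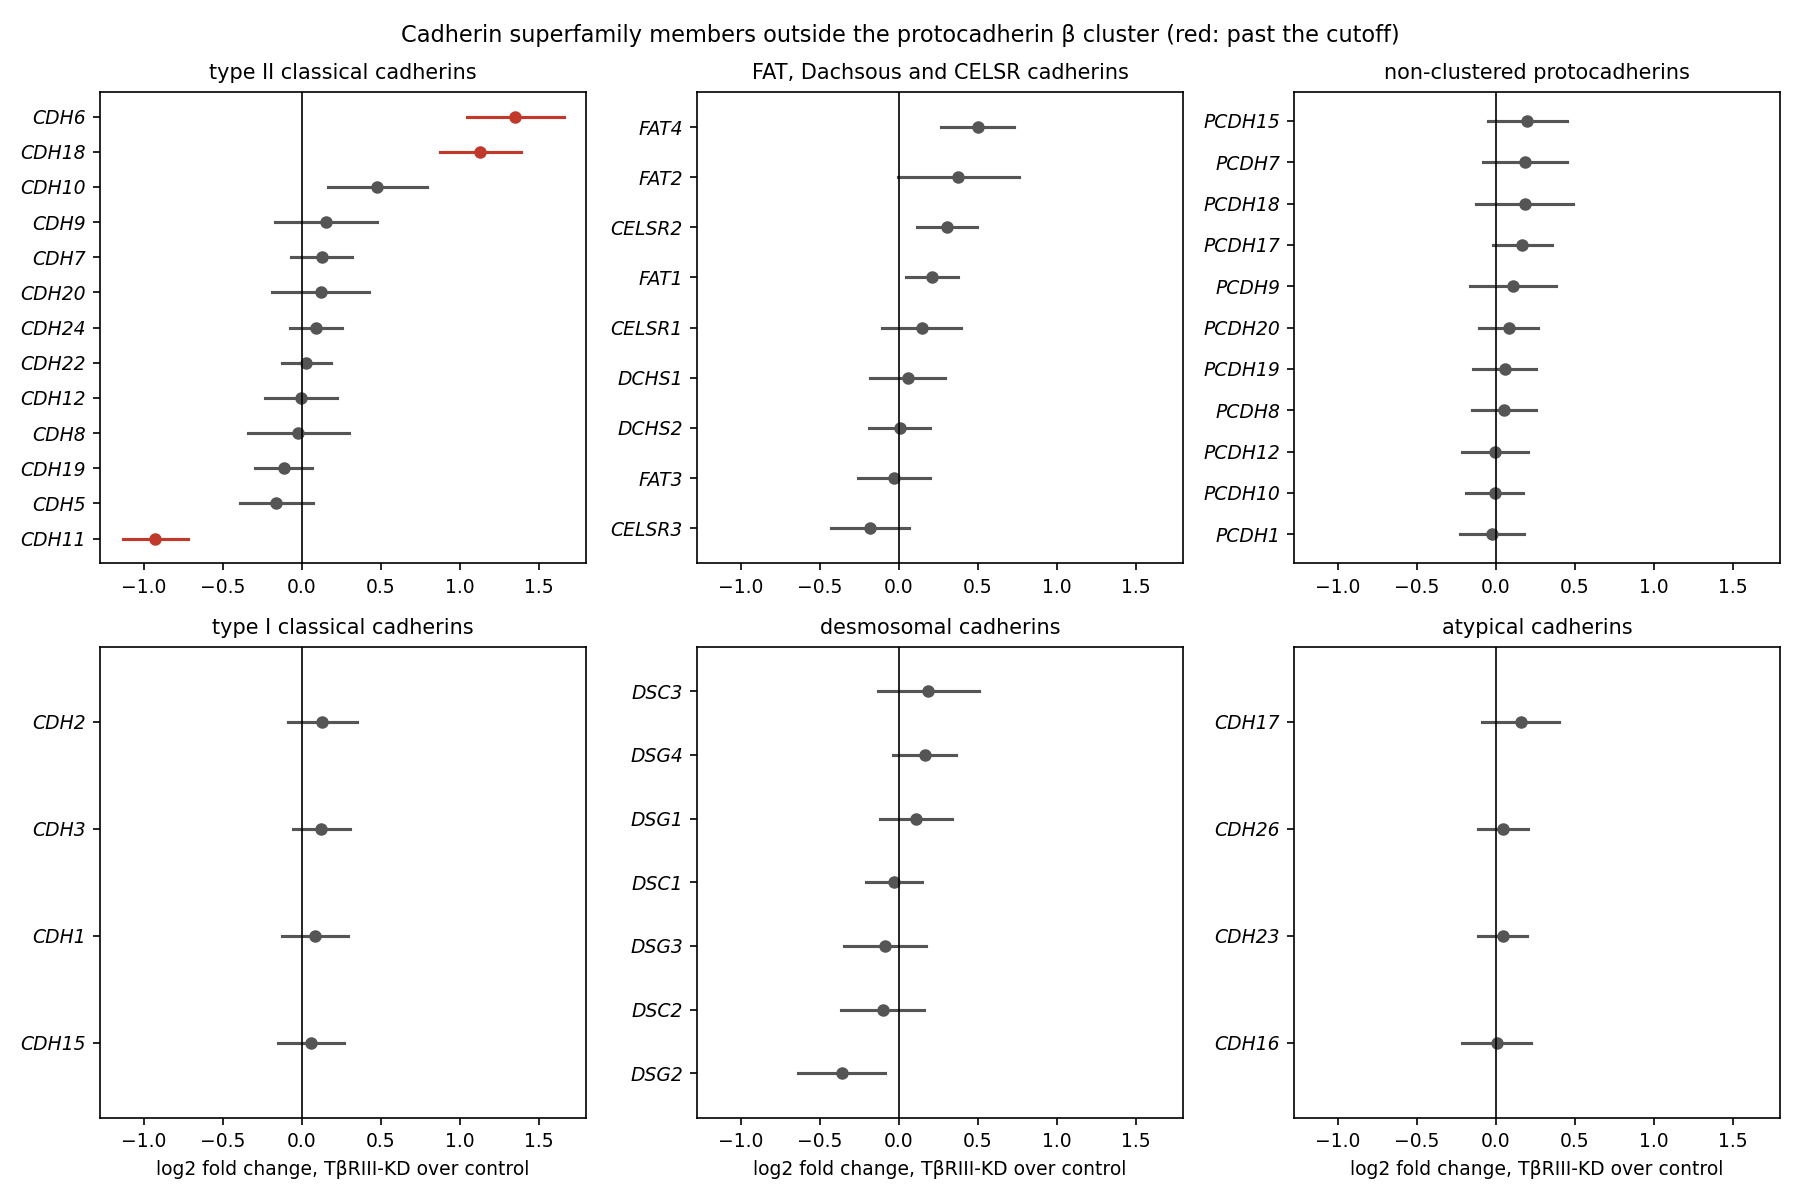
Log2 fold change, TβRIII-KD relative to control (horizontal axis) for the 48 cadherins outside the β cluster, in 6 panels by subfamily, with bars for the 95% confidence interval from limma and genes past the cutoff in red. The red genes are CDH6 (1.35), CDH18 (1.13) and CDH11 (-0.93), all type II classical cadherins. FAT4 (0.50) and CDH10 (0.48) are the highest of the grey points and DSG2 (-0.36) is the lowest.

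The clustered protocadherins measured alone were 16 coding genes of the β cluster and its pseudogenes PCDHB17P and PCDHB18P, which lie side by side on the long arm of chromosome 5. Each β gene is a single large exon with its own promoter and encodes a whole surface protein, and no splicing joins it to a shared constant part as in the α and γ clusters. In TβRIII-KD, 8 of the 18 fell, 17 of 18 had a lower mean (45.5% of all genes did) and 12 were lower without overlap of the groups. The median log2 fold change was -0.56. PCDHB14, the gene with the largest difference, had log2 signals of 5.27, 5.32 and 5.67 in TβRIII-KD, against 6.66, 6.39 and 6.85 in controls. Its signal was 2.32-fold higher in controls (log2 fold change -1.21, SE 0.14, adjusted p = 0.00323).

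The β promoters share a short stretch, and 6 of them are shown because the genes they belong to span the largest differences and the only gene with a higher mean. The sequences are from RefSeq on GRCh38.p14, plus strand, 5′ to 3′, and each runs over the 100 bases before the annotated start. Capitals mark GGTGGCGCT, or in PCDHB1 the stretch closest to it. GGTGGCGCT stood in 13 of the 14 β windows searched, and no longer stretch stood in as many. PCDHB14 lies at chr5:141223243-141223342, PCDHB9 at chr5:141187061-141187160, PCDHB5 at chr5:141135106-141135205, PCDHB16 at chr5:141182287-141182386, PCDHB2 at chr5:141094515-141094614 and PCDHB1 at chr5:141051274-141051373.
PCDHB14: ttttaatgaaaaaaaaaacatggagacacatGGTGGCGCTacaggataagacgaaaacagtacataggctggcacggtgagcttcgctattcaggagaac
PCDHB9: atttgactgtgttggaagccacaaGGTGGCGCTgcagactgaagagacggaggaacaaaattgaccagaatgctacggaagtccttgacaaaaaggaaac
PCDHB5: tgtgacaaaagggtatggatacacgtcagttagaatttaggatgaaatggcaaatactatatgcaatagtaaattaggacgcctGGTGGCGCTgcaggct
PCDHB16: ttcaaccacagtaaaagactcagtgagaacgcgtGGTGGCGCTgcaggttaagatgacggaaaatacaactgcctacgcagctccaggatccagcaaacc
PCDHB2: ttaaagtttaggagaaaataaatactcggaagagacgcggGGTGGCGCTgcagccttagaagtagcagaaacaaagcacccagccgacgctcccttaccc
PCDHB1: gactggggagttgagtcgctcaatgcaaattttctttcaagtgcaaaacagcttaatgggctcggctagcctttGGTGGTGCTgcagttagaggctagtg

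Windows of 250 bases before to 50 after the start were on hand for 14 of the 18 β genes. GGTGGCGCT, searched on both strands, stood in 13 of these 14, each time on the gene's strand with its first base 2 to 84 bases upstream of the start. It stood in 0.501% of the 35116 windows of all genes, in 0 of 13 windows of α protocadherin genes, 0 of 25 windows of γ genes and 0 of 45 windows of the other cadherin members. Those 45 windows belong to 32 of the 49 other members, and windows of CDH6, CDH11 and FAT4 were not analysed here. The stretch was picked for being shared by the β windows, so its share among them and its rarity in the other sets are a description. Only exact matches of all 9 bases were counted, so a related stretch in α or γ windows would not be seen. Its last 4 bases, CGCT, stood in 70.0% of all windows and in 14 of 14 β windows, and were not counted apart for α or γ windows. PCDHB1 was the β window without GGTGGCGCT. Its closest stretch, GGTGGTGCT, differs by C6T, counted from 1 at the 5′ end of GGTGGCGCT.

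All 13 β genes with the stretch had a lower mean in TβRIII-KD, and 7 of them fell. PCDHB6, PCDHB11, PCDHB17P and PCDHB18P, which had no window, had lower means too, and PCDHB17P fell. PCDHB1, without the stretch, had a control mean signal of 4.31, under the lower quartile of all transcript clusters (6.38). Outside the β cluster, 156 genes had the stretch and 107 of those were measured. Of the 107, 0 rose and 1 fell by limma at the cutoff, where 0.772% of all genes rose and 1.55% fell. A lower mean was found in 59 of the 107 (45.5% of all genes had one), and the median log2 fold change of the 107 was -0.01. A match of letters is not a binding site, and no factor was measured on these windows.

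PCDHB9 had log2 signals of 6.51, 6.77 and 6.70 in TβRIII-KD, against 7.37, 7.47 and 7.60 in controls. PCDHB5 had 7.27, 7.36 and 7.52 in TβRIII-KD, against 7.98, 8.21 and 8.18 in controls. Both had groups well apart, with log2 fold changes of -0.82 (SE 0.10, adjusted p = 0.00323) and -0.74 (SE 0.10, adjusted p = 0.00517). PCDHB14, PCDHB9 and PCDHB5 passed the cutoff whichever single array was left out, with adjusted p up to 0.0352.

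PCDHB16 had log2 signals of 6.75, 6.92 and 6.40 in TβRIII-KD, against 7.52, 7.30 and 7.71 in controls. PCDHB10 had 4.91, 4.79 and 4.86 in TβRIII-KD, against 5.48, 5.33 and 5.72 in controls. The pseudogene PCDHB17P had 5.61, 5.89 and 5.77 in TβRIII-KD, against 6.27, 6.59 and 6.76 in controls. No array of one group reached into the other in any of these. Their log2 fold changes were -0.82 (SE 0.15, adjusted p = 0.0220) for PCDHB16, -0.66 (SE 0.10, adjusted p = 0.0131) for PCDHB10 and -0.78 (SE 0.13, adjusted p = 0.0151) for PCDHB17P.

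PCDHB2 had log2 signals of 7.003, 6.84 and 7.13 in TβRIII-KD, against 7.37, 7.72 and 7.90 in controls. PCDHB15 had 5.09, 5.30 and 5.03 in TβRIII-KD, against 5.63, 5.56 and 5.999 in controls. These are the nearest to the threshold of the 8 that fell, at -0.67 (SE 0.14, adjusted p = 0.0372) and -0.59 (SE 0.13, adjusted p = 0.0457).

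Calls of 5 of these genes were lost with 1 array fewer, while their log2 fold changes lay between -0.94 and -0.45 in every such fit. PCDHB15 lost its call whichever array was left out (adjusted p = 0.0552 to 0.116). PCDHB2 lost it without TβRIII-KD 1 (0.0881), TβRIII-KD 2 (0.149), control 2 (0.121) or control 3 (0.111). PCDHB16 lost it without TβRIII-KD 1 (0.0552), control 1 (0.0963) or control 3 (0.0818). PCDHB10 lost it without TβRIII-KD 2 (0.0654) or control 1 (0.0617), and PCDHB17P without TβRIII-KD 1 (0.0519) or control 2 (0.0582). Over all alternatives, the adjusted p of these 5 genes lay between 0.00321 and 0.273. The count of β genes that fell was 4 without TβRIII-KD 1 and 5 without TβRIII-KD 2, control 1 or control 3.

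Of the 10 β genes that did not pass, 9 had a lower mean in TβRIII-KD. PCDHB3, PCDHB4, PCDHB6 and PCDHB7 had groups that did not overlap, at -0.51, -0.27, -0.53 and -0.29, with adjusted p of 0.0904 for PCDHB6 and 0.183 or more for the other 3. PCDHB18P was at -0.61 with overlapping groups, its controls spread from 5.996 to 7.01. PCDHB8, PCDHB11, PCDHB12 and PCDHB13 lay between -0.29 and -0.07. PCDHB1, the first gene of the cluster, had 4.49, 4.49 and 4.25 in TβRIII-KD, against 4.36, 4.28 and 4.30 in controls. It was the gene with a higher mean, at 0.10 (interval -0.10 to 0.29), and without it the median of the cluster was -0.59.

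Arrays differed within the groups. The median over the 18 β genes of the distance from the control mean was -0.64, -0.49 and -0.44 on TβRIII-KD 1, 2 and 3, and -0.02, -0.10 and 0.20 on control 1, 2 and 3. Control 3 was the highest control in 15 of the 18 genes. The mean signal of 17 of the 18 lay under the median of all transcript clusters (7.70), and PCDHB5 lay above it. Among those that fell, PCDHB10 and PCDHB15 had mean signals under the lower quartile (6.38) in both groups. PCDHB14 and PCDHB17P lay under it in TβRIII-KD. Genes of the cluster are close copies of each other, and how far their probes tell them apart was not tested, so the value of a single β gene is uncertain and the 18 are not independent measurements.

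**Figure D3:**
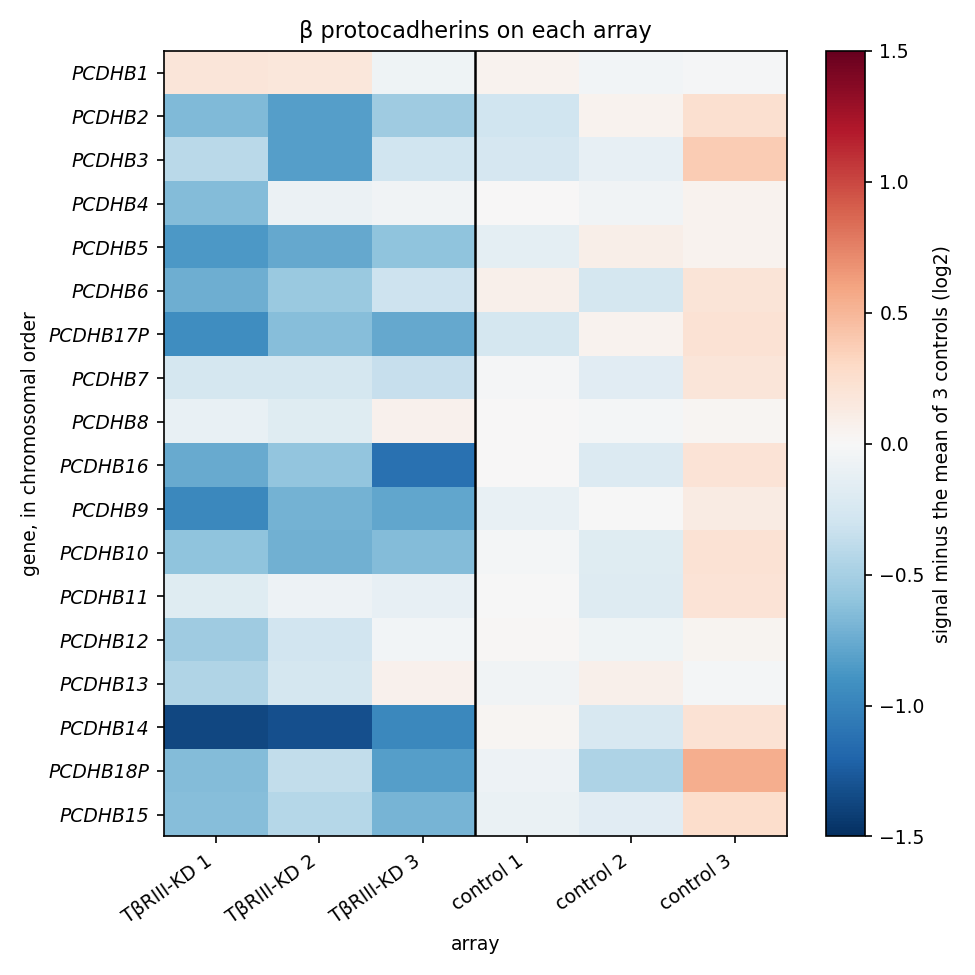
Signal of each β protocadherin on each array minus the mean of the 3 control arrays (colour, log2), genes in chromosomal order from top to bottom, TβRIII-KD arrays on the left of the black line and control arrays on the right. The TβRIII-KD columns are mostly blue, with medians of -0.64, -0.49 and -0.44, PCDHB1 and PCDHB8 are close to white, and control 3 is the warmest column.

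Genes next to the β cluster were also measured. SLC25A2 and TAF7, a mitochondrial carrier and a subunit of the general transcription factor TFIID, follow PCDHB15 in the gene order. TAF7 was at -0.39 on the log2 scale (SE 0.09, adjusted p = 0.0533) and SLC25A2 at 0.13 (adjusted p = 0.491). DIAPH1, a formin that stands beyond the γ cluster, was at -0.01 (interval -0.26 to 0.23). On the other side, the nearest gene with a value of its own, VTRNA1-3, was at -0.16 (adjusted p = 0.740). The α protocadherins share 1 transcript cluster with 15 symbols, with signals of 6.12, 6.25 and 6.17 in TβRIII-KD, against 6.25, 6.03 and 6.15 in controls. The groups overlapped, at 0.03 (interval -0.15 to 0.22, adjusted p = 0.901), and γ genes were not analysed here.

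**Figure D4:**
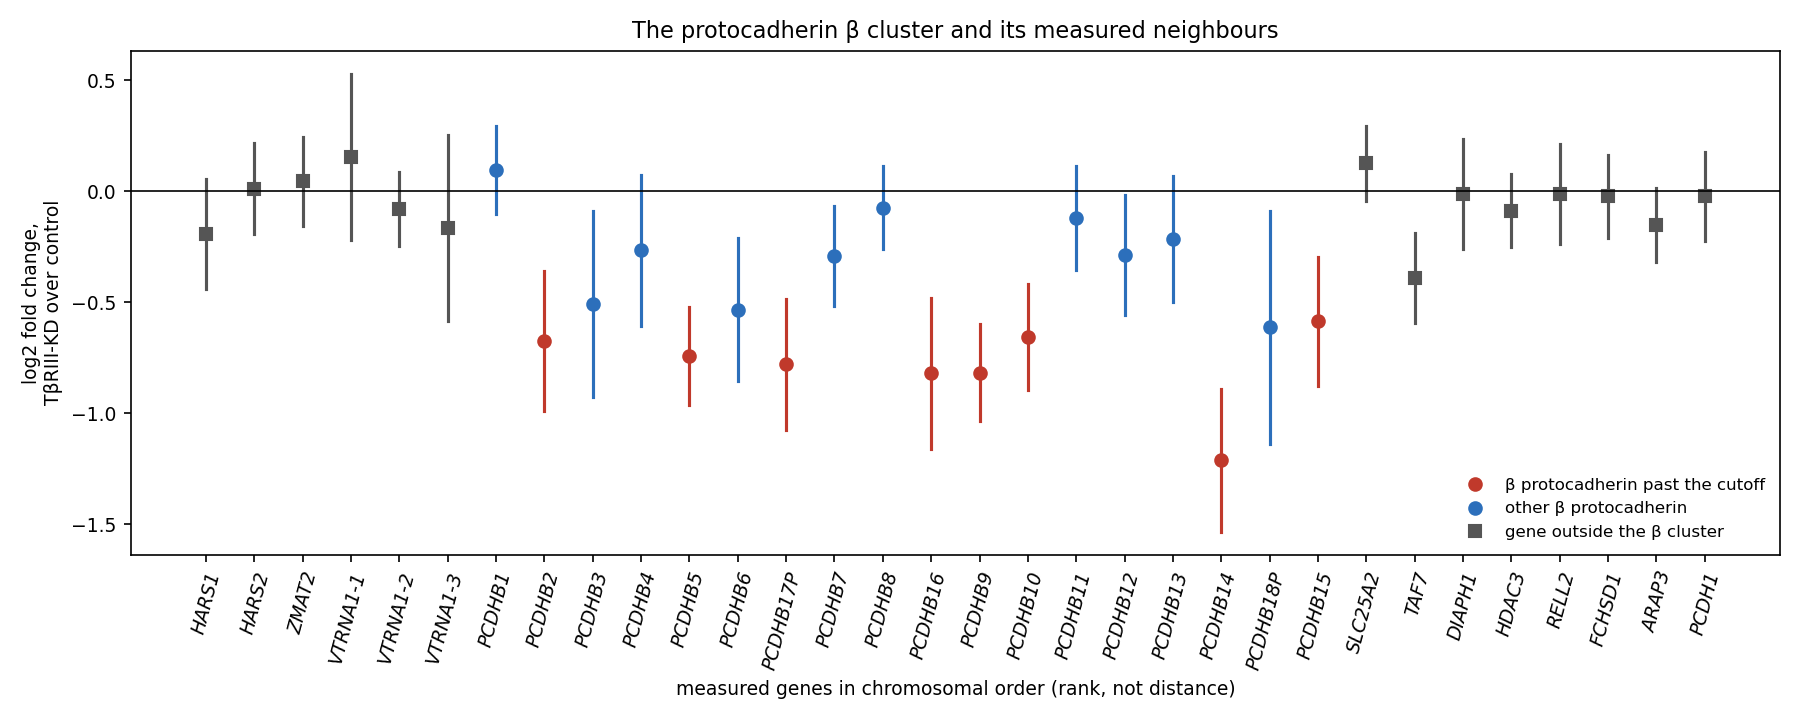
Log2 fold change, TβRIII-KD relative to control (vertical axis) with 95% confidence intervals from limma, for the β protocadherins and their measured neighbours in chromosomal order (horizontal axis, rank and not distance). The 8 red β genes lie between -1.21 and -0.59, PCDHB1 lies at 0.10, and of the grey neighbours only TAF7 (-0.39) has an interval that does not reach 0.

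Partners of the cadherins were read from lists of known members, and 0 genes of any of the 6 lists passed the cutoff by limma. Of all genes 2.33% did, and at that share lists of 10 to 21 genes would hold few or none. By limma's unadjusted p, 15.6% of all genes lay under 0.05, and the counts of each list below stand beside that share. Of 21 catenins and adherens junction adaptors, 5 had an unadjusted p under 0.05, and CTNNB1 (β-catenin) and CTNNA1 (α-catenin) were at 0.00 and -0.02. JUP, or plakoglobin, which serves both junction types, had log2 signals of 10.11, 10.14 and 9.998 in TβRIII-KD, against 9.69, 9.83 and 9.61 in controls. Its groups did not overlap, and its log2 fold change of 0.37 missed the threshold (SE 0.08, adjusted p = 0.0513). Of 10 desmosome plaque proteins, 3 had an unadjusted p under 0.05, JUP among them, and DSP (desmoplakin) was at -0.05.

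Of 17 repressors of E-cadherin and regulators of the epithelial to mesenchymal transition, 5 had an unadjusted p under 0.05. ZEB2, a repressor of CDH1, had log2 signals of 9.86, 9.81 and 9.996 in TβRIII-KD, against 9.38, 9.49 and 9.48 in controls. It passed by adjusted p but not by fold (0.44, SE 0.08, adjusted p = 0.0220). SNAI1 and KLF8 went the other way, at -0.43 (adjusted p = 0.0614) and -0.41 (adjusted p = 0.119). In this list 13 of 17 genes had a higher mean in TβRIII-KD and 4 a lower one, where 54.5% of all genes were higher. The list mixes repressors with genes of the epithelial state such as GRHL2 and ELF3, so these counts are not of repressors alone. Of 20 planar polarity and Fat-Dachsous partners, 6 had an unadjusted p under 0.05, and FZD6, a Frizzled receptor, was at 0.34 (adjusted p = 0.0354). VANGL1 went the other way at -0.37 (adjusted p = 0.114), and 9 of the 20 had a higher mean and 11 a lower one. Among 18 proteases that process cadherins, 4 had an unadjusted p under 0.05, and ADAM17, a protease that sheds surface proteins, was at -0.29 (adjusted p = 0.0866). MMP7 went the other way at 0.43 (adjusted p = 0.104), and 7 of the 18 had a higher mean and 11 a lower one. Among 13 regulators of the protocadherin clusters, 1 had an unadjusted p under 0.05, the cohesin subunit STAG1 at -0.27 (adjusted p = 0.111). The insulator protein CTCF and the chromatin protein SMCHD1 were both at 0.08.

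The methods name limma for these arrays, and an unpaired test for group comparisons in general. Under that unpaired test (the methods' t-test), run on the same arrays with the same fold limit, 0 members passed after Benjamini-Hochberg adjustment, where 0.0766% of all genes did. At an unadjusted p under 0.05, 2 members were higher and 10 lower, where 2.73% of all genes passed, 0.952% higher and 1.78% lower. The adjusted p of the methods' t-test was 0.109 for CDH6, 0.101 for CDH18, 0.0811 for CDH11 and 0.133 for PCDHB14.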

How the data were processed

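The deposited values were log2 signals of 6 Affymetrix Human Gene arrays, which the authors made in R 3.0.1 with oligo's RMA: a background correction, quantile normalization between arrays, and median polish over the probes of each cluster. RMA sets the arrays to a common distribution, so a shift shared by most genes would not be seen. The oligo version is not given in the sources used here. Precision is limited by 3 arrays per group.

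All 22148 transcript clusters were fitted in R 4.3.3 with limma 3.58.1 (lmFit and eBayes without trend, two-sided) and adjusted by Benjamini-Hochberg over all of them, and the fit was tested on simulated data. SE is limma's moderated standard error. Every member had 1 transcript cluster. Groups came from the labels, and replicate numbers were not taken as pairs. Symbols were from GEO's platform annotation and RefSeq: 19099 of 19129 clusters with 1 symbol had a gene ID in RefSeq. Promoter windows from RefSeq (GRCh38.p14) matched 46 of the 67 members.

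The members and lists were chosen with earlier results of these data known. Named were all members past the cutoff, up to 4 members per subfamily with the smallest p, CDH1, CDH2, CDH3, CDH5, FAT1 and FAT4, the leading gene of each list, TGFBR3 and measured neighbours. Other genes were named after their values were seen. Lists of cell types and RNA quality not described as a whole above were luminal epithelium, basal keratinocyte, neuron and glia, leukocyte and RNA quality. Their summed signals, in this order, were 4899 to 5777, 1399 to 1702, 2100 to 2385, 1126 to 1495 and 38184 to 39915 in TβRIII-KD. In controls they were 6187 to 7382, 1656 to 1902, 2042 to 2235, 1339 to 1736 and 39878 to 41315. Of these lists KRT5 alone passed the cutoff (-0.93), where 2.33% of all genes did. In the luminal list, 5 means were higher and 5 lower in TβRIII-KD. KRT8 and KRT18, its highest signals, were at -0.36 and -0.38 on the log2 scale (limma adjusted p = 0.0871 and 0.217).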

Additional observations from a re-analysis of the deposited data

How the results depend on the processing

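Moderation with a trend or made robust, arrays centred on their medians and clusters with a symbol only kept every member count at or within 1.5 times its value. After Benjamini-Hochberg adjustment, the methods' t-test passed 0 members in each direction, with and without the fold limit, and TGFBR3 kept its log2 fold change of -0.79 with an adjusted p of 0.198. Without adjustment it passed 5 higher members with no fold limit. Among clusters at or above the median signal, 2 members and 1 β gene were lower, since 7 of the 8 β genes that fell lie under that median and are not tested there. At an absolute log2 fold change over 1, 1 member was lower. Array weights ended the call of PCDHB2 (adjusted p = 0.0671). With 1 array left out, the count of lower members was 5 to 9 with and without the fold limit, of β genes 4 to 8, of higher members 2, or 2 to 3 with no fold limit, and the log2 fold change of TGFBR3 was -0.89 to -0.67.

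Among the named genes, signs turned for 9, none of which passed the cutoff. CDH16 was at -0.0379 with array weights and -0.00515 with quantile normalization repeated, DIAPH1 at 0.0214 and 0.00857, and CDH12 at 0.0249 with that repeat. With 1 array left out, the log2 fold change was -0.0538 to 0.0915 for CDH16, -0.0961 to 0.0714 for CDH12, -0.0686 to 0.0771 for DIAPH1, -0.00215 to 0.13 for CDH1, -0.00318 to 0.14 for CDH15, -0.0600 to 0.00441 for CDH4-AS2, -0.16 to 0.0947 for CDH8, -0.21 to 0.0244 for DSC2 and -0.0975 to 0.0487 for PCDH1. The cause was not tested.

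Deviations of same-numbered arrays correlated at -0.06, 0.11 and 0.31, and those of differently numbered arrays at -0.39 to 0.34. With 3 arrays per group, these values cannot settle if the numbers pair the arrays. With the replicate number as a block, 2 members were higher and 10 lower, 9 of them β genes with PCDHB6 added (adjusted p = 0.0326), and TGFBR3 was at -0.79 (adjusted p = 0.0125). The block ended no call of a member.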
